A study of Homo sapiens with 68 samples.

Results

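Doubling the puromycin dose in Ewing sarcoma cells was examined on 12 expression arrays, taken by their sample titles from the 68 arrays of the series. Puromycin at 180 nM, labelled as 2 times its EC50 (the concentration of mid-range effect), was set directly against 90 nM, labelled as the EC50, with 3 arrays per dose at 24 h and 3 per dose at day 3. All of the cells were A673, an established human Ewing sarcoma line that carries the EWS/FLI fusion and grew in medium with calf serum and pyruvate, so a single line stands for the tumor. Every group compared here had received puromycin, and vehicle arrays of the same plate rows (3 at 24 h, 2 at day 3) appear only as a background level. The 4 puromycin arrays of later cultures, at day 5, were not analysed here. The labels call the replicates biological without saying how the cultures were separated, so the p-values measure the spread between these arrays.

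Puromycin resembles the end of an aminoacyl-tRNA. The ribosome joins it to the growing peptide, which is then released unfinished. Truncated proteins reach the proteasome and the lysosome, and kinases that sense stress can activate the transcription factor ATF4 and its partners, whose targets include DDIT3 (CHOP), PPP1R15A (GADD34), TRIB3 and the genes of amino acid supply. Blocking translation can also stabilize short-lived transcripts of early genes such as those of the JUN and MAF families.

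Among the gene lists described below, histone genes had the highest median difference between the doses, and among lysosome and autophagy genes ATP6V0D1 was called higher at 180 nM. Promoters of H2B histone genes are known for an octamer, ATTTGCAT, that OCT1 binds. The letters ATTTGCAT, on either strand, were present in the RefSeq window of 250 bases before to 50 after the start site (GRCh38.p14) in 10 of the 19 listed histone genes with a window (52.6%), and in 492 of all 27305 windows (1.8%). The 10 genes hold 8 distinct sites, since H2AC6 and H2BC4 share one and H2AC8 and H2BC8 another. The sites of H2BC12, which was called, and of H2BC9 and H2BC6, which had positive differences that did not pass on 12 arrays, are shown 5′ to 3′ in the direction of the gene, with the octamer in capitals.
H2BC12: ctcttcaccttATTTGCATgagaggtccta
H2BC9: attaagcacctATTTGCATaaaagacctac
H2BC6: taagctccttcATTTGCATgcagacttcac
They lie at chr6:27146886-27146915 on the minus strand for H2BC12, chr6:26251554-26251583 on the plus strand for H2BC9 and chr6:26183642-26183671 on the plus strand for H2BC6. The octamer starts 46, 49 and 108 bases before the start of transcription in H2BC12, H2BC9 and H2BC6. H2BC21, whose difference was negative and did not pass, also has the octamer (46 bases before its start, chr1:149886710-149886739, minus strand), and so does H3-3B.
H2BC21: tcggagccctaATTTGCATaaggtggttat

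The CLEAR element, through which TFEB and TFE3 act on lysosome genes, was searched as TCACGTGA, a palindrome that reads the same on both strands. It was found in 4 of 26 listed lysosome and autophagy genes with a window (15.4%), against 283 of 27305 windows (1.04%). ATP6V0D1, which was called, and MCOLN1 are shown with the element in capitals. The element was also present in CTSA and LAMP1, which differed by 0.26 ± 0.08 and −0.11 ± 0.12 (adjusted p = 0.18 and 0.75).
ATP6V0D1: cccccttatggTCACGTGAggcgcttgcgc
MCOLN1: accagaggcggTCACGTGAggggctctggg
The ATP6V0D1 site is at chr16:67481199-67481228 on the minus strand, and the MCOLN1 site, the first of 2 in its window, at chr19:7522571-7522600 on the plus strand. The amino acid response core TGATGCAA was present on either strand in 1 of 22 listed ATF4 targets with a window, CHAC1, and in 0.923% of all windows. These matches describe the letters only.

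The 12 arrays had the same mean signal after the authors' scaling, and on each of them 19.9% to 22.2% of probe sets read below 10, the floor to which the lowest signals were raised before taking log2. Array number limits the precision. Replicate 1 of 180 nM at 24 h stood apart. Its log2 ratio of 3′ to 5′ probe sets for ACTB, a measure of how intact the RNA is, was 3.17, against 1.05 and 1.17 on the other arrays of its group, 1.39 to 2.06 at 90 nM and 24 h and 0.365 to 0.828 on vehicle arrays of the same plate rows. It also correlated less with the remaining 11 (median r of 0.9605) than they did (0.9745 to 0.9835). Results are given with and without it. At day 3, replicate 1 of 180 nM and all of 90 nM lay in plate row D and the other 180 nM arrays in row E, while all 24 h arrays lay in row B.

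**Figure D1:**
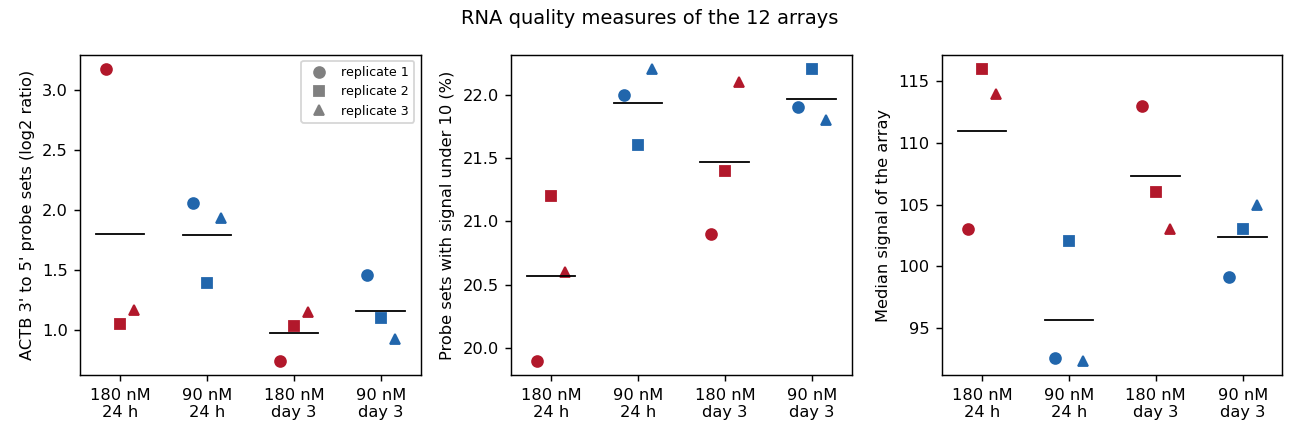
Each point is 1 array (180 nM red, 90 nM blue; shapes mark replicate numbers; lines are group means, n = 3). From left to right, the y axes give the ACTB 3′ to 5′ log2 ratio, the percent of probe sets with a signal under 10 and the median signal of the array. Replicate 1 of 180 nM at 24 h lies apart in the first panel, at 3.17.

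The share of dim values differed with dose, and the median signal was higher at 180 nM in 24 h cells. The share of values under 10 was 20.6% at 180 nM and 21.9% at 90 nM at 24 h, and 21.5% and 22.0% at day 3. The mean difference was −0.936 percentage points (two-sided exact permutation within time, p = 0.015, adjusted over 3 measures 0.045, the smallest possible p being 0.005). Without the array that stood apart the adjusted p was 0.075, and with other single arrays left out it was between 0.015 and 0.12. The median signal was 103, 116 and 114 at 180 nM, against 92.5, 102 and 92.3 at 90 nM at 24 h, and 113, 106 and 103 against 99.1, 103 and 105 at day 3. Over all 22215 probe sets the median difference, 180 nM minus 90 nM, was 0.078 at 24 h, 0.012 at day 3 and 0.060 for the mean of both times on the log2 scale. The ACTB ratio differed by −0.0917 on average (exact permutation p = 0.84), and by −0.435 without the array that stood apart (p = 0.06). At 24 h it averaged 1.79 at both doses, but 1.11 at 180 nM without that array (exact permutation p = 0.2). All results below without that array therefore compare doses whose 24 h arrays differ in this ratio, and its part in them was not tested.

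Marker genes fitted the labelled cell. The 8 measured Ewing sarcoma markers, among them CD99, NKX2-2 and NR0B1, summed to a signal of 54000 to 58500 on the 180 nM arrays and 53600 to 61000 on the 90 nM arrays, whereas 15 blood cell markers summed to 189 to 277 and 139 to 262. The 15 fibroblast and endothelial markers summed to 4340 to 7870 at 180 nM and 4450 to 6650 at 90 nM, and 14 epithelial markers to 10800 to 13000 and 11000 to 13200. None of the Ewing sarcoma markers lay under 10 on all 12 arrays, against 1 blood, 1 epithelial and 2 fibroblast or endothelial markers.

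Few probe sets passed the test on 12 arrays. With limma and Benjamini-Hochberg adjustment at 0.05, 7 of 22215 probe sets (0.0315%) were higher at 180 nM at 24 h and 0 lower, 1 (0.0045%) was lower at day 3 and 0 higher, and for the mean of both times 89 (0.401%) passed, 77 higher (0.347%) and 12 lower (0.054%). At an unadjusted p under 0.05, 1962 were higher and 409 lower at 24 h, 1395 and 834 at day 3, and 2291 (10.3%) and 651 (2.93%) for the mean. Without the array that stood apart, the counts were 582 higher and 48 lower at 24 h, 87 and 32 at day 3, and 1347 and 181 for the mean, and these included each of the 7, 1 and 89. Removing replicate 1 of 180 nM at day 3 instead left 10 calls for the mean. With the ACTB ratio as a covariate, 961 were called for the mean on 12 arrays (672 higher, 289 lower) and 7 without the array that stood apart. With plate row as a block, 106 were called at day 3, 101 of them higher, and 126 for the mean. The part of RNA quality in the differences was not tested further.

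The split between directions followed the scaling. Quantile normalization gave 65 higher and 92 lower for the mean (157 in all), and shifting each array to a common median gave 17 higher and 87 lower, with a median over all probe sets of −0.082. Of the 89 calls, 39 remained with quantile normalization, 28 with a common median and 21 with plate row as a block. Apart from ALOX5 and PRSS3, each of the 89 had the same sign under all 29 alternatives run. Every signal on the called probe sets of ALOX5 and PRSS3 lay under 32. With the floor raised to 32 they therefore kept no difference, and their sign there says nothing. Only 6 of the 89 stayed called whichever single array was left out. These were EPHX1, RUNX3, PRSS3, ALOX5, NKIRAS2 and METTL22. With the ACTB ratio as a covariate on 11 arrays, 1 of the 89 was among the 7 called. When all 68 arrays were fitted, 1 of the 89 was among the 2 called.

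RUNX3, a Runt family transcription factor on chromosome 1, shared the lowest adjusted p of the 89 for the mean of both times with the dim ALOX5. Its signal was 247, 250 and 246 at 180 nM, against 140 to 149 at 90 nM at 24 h. At day 3 it was 216, 232 and 258, against 134, 115 and 116. No 180 nM array overlapped a 90 nM array of its time, and the mean log2 difference was 0.86 ± 0.07 (SE; limma adjusted p = 0.0069). Vehicle arrays averaged 178 at 24 h and 103 at day 3. A second RUNX3 probe set gave 0.40 (adjusted p = 0.37).

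AMPD1, the muscle-type AMP deaminase of the purine nucleotide cycle, read 566, 542 and 574 at 180 nM, against 312, 269 and 238 at 90 nM at 24 h. At day 3 its signal was 862, 710 and 947 at 180 nM, against 435, 287 and 254 at 90 nM, with vehicle means of 209 and 125 at the 2 times. Within each time every 180 nM array lay above every 90 nM array, and the mean difference was 1.22 ± 0.14 on the log2 scale (adjusted p = 0.020). P4HA2, a collagen prolyl 4-hydroxylase subunit, was higher by 0.91 ± 0.11 (adjusted p = 0.023), from 401, 470 and 482 at 180 nM, against 295, 235 and 251 at 90 nM at 24 h, and 281, 251 and 310 against 169, 125 and 122 at day 3.

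EPHX1, the microsomal epoxide hydrolase, passed the test at 24 h as well (adjusted p = 0.032). It read 597, 621 and 617 at 180 nM, against 362, 407 and 316 at 90 nM at 24 h, and 580, 544 and 548 against 412, 396 and 392 at day 3. Here the vehicle means, 777 and 636, lay above both doses, so that 180 nM was nearer to vehicle than 90 nM was. IFT22, a component of intraflagellar transport, lay above vehicle at 180 nM and below it at 90 nM at 24 h, with 358, 377 and 384 at 180 nM, 168, 224 and 183 at 90 nM and a vehicle mean of 325 (24 h difference 0.97 ± 0.11, adjusted p = 0.041). METTL22 passed with a small difference, 1650, 1660 and 1660 at 180 nM, against 1280, 1290 and 1290 at 90 nM at 24 h (0.36, adjusted p = 0.014).

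Other genes called for the mean ranged widely in level. They included SLC1A4, a neutral amino acid transporter (0.63 and 0.49 on its called probe sets, 0.40 and 0.37 on the others), SMOX, spermine oxidase (0.68), TXNL4B (0.69), SOX4, a transcription factor of progenitor cells (0.65 on 1 of its 5 probe sets), and NKIRAS2, an inhibitor of NF-kB signaling (0.57). OLFM1, an olfactomedin of neurons, was higher by 0.89 and 0.80 on both of its brighter probe sets, and read 596, 539 and 746 at 180 nM, against 306, 208 and 200 at 90 nM at day 3 on the first of them. HAPLN1, which links hyaluronan and proteoglycans, and IGSF3 were higher by 0.98 and 0.97. RPS6KA5, the kinase MSK1, differed by 1.27, from signals of 53 to 74.9 at 180 nM, against 19.4 to 34.6 at 90 nM. N4BP2L2-IT2 and ST8SIA5 differed by 1.57 and 1.29, but some of their signals at 90 nM lay under 10, so the size of these differences depends on the floor. EPHB1, a receptor tyrosine kinase, and TMEM63A were called at 24 h from signals of 31.8 to 65.6 at 180 nM, against 5.03 to 12 at 90 nM, on 1 dim probe set each, and other probe sets of both genes were not called.

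**Figure D2:**
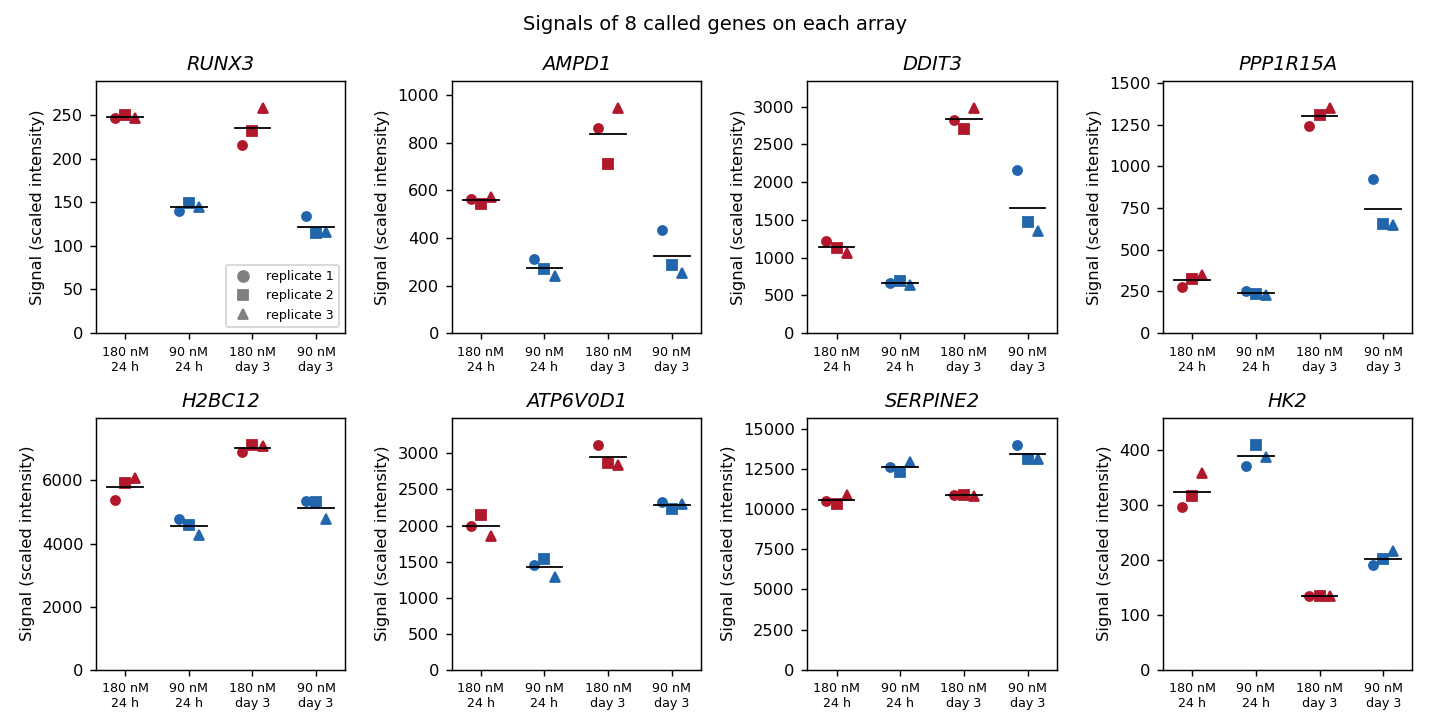
Signals (MAS5 scaled intensity, linear axes from 0) of 8 called genes on each array, with 180 nM in red left of 90 nM in blue at 24 h and at day 3; shapes mark replicates and lines are group means (n = 3). In RUNX3, AMPD1, DDIT3, PPP1R15A, H2BC12 and ATP6V0D1 every 180 nM array lies above the 90 nM arrays of its time, and in SERPINE2 and HK2 below.

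Histone genes were the list with the highest median. Of 21 listed genes 20 were measured, and their median mean difference was 0.40, against 0.06 over all 11882 genes. It was 0.29 with quantile normalization and 0.26 with a common median. At an unadjusted p under 0.05, 12 of the 20 were higher and 2 lower, where 11.7% of all genes were higher and 3.5% lower. After adjustment 1 of the 20, H2BC12, was called (0.463% of all genes were called higher), and 9 were without the array that stood apart (6.77% of all genes). With quantile normalization of those 11 arrays 3 were called higher and 0 lower, and of all genes 123 and 148.

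H2BC12, an H2B gene of the large cluster on chromosome 6, read 5370, 5920 and 6060 at 180 nM, against 4790, 4580 and 4280 at 90 nM at 24 h, and 6890, 7130 and 7100 against 5340, 5310 and 4770 at day 3 (0.40 ± 0.05, adjusted p = 0.020). Vehicle arrays averaged 4900 and 4800. Its promoter octamer is printed above. H2AC6, an H2A gene, read 664, 719 and 960 at 180 nM, against 572, 534 and 611 at 90 nM at 24 h, and 2180, 1950 and 2410 against 1590, 1160 and 1170 at day 3 (0.59 ± 0.12, adjusted p = 0.069, and 0.024 without the array that stood apart). H1-2, a linker histone, read 420, 414 and 398 at 180 nM, against 384, 325 and 284 at 90 nM at 24 h, and 1090, 933 and 1030 against 747, 680 and 651 at day 3 (0.44 ± 0.08, adjusted p = 0.056, and 0.028 without that array). In all of them the groups did not overlap at either time.

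H2BC5 was called on 1 of its probe sets (0.90 ± 0.14, adjusted p = 0.046). On it the signal was 395, 528 and 562 at 180 nM, against 357, 363 and 371 at 90 nM at 24 h, but 1550, 1790 and 2710, against a mean of 755 at 90 nM, at day 3. H2BC9 and H2BC6, whose octamers are shown with that of H2BC12, differed by 0.55 ± 0.13 and 0.40 ± 0.16 on 12 arrays, where neither passed, and passed without the array that stood apart (adjusted p = 0.0079 and 0.030). H2BC8 had the largest mean difference of the list, 1.20 ± 0.26 (adjusted p = 0.089), reading 74.3, 39 and 50 at 180 nM, against 13.2, 6.31 and 26.5 at 90 nM at 24 h. Probe sets of H2A and H2B genes share sequence, several being of the cross-hybridizing kind, so these genes are not independent of one another.

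Other members of the list gave values near 0 or below it. H2AZ1 read 13100, 12800 and 12000 at 180 nM, against 13100, 12100 and 11700 at 90 nM at 24 h, a mean difference of 0.00 ± 0.04. H2AX differed by 0.04 ± 0.07, H3-3B by −0.12 ± 0.08 and MACROH2A1 by −0.17 ± 0.07. H2BC21, the octamer gene on chromosome 1, differed by −0.39 ± 0.17 (adjusted p = 0.36). At day 3, 11 of the 20 genes had every 180 nM array above every 90 nM array and 1 the reverse, against 12.8% and 7.21% of all genes. At 24 h, 4 were higher and 1 lower in this way, against 10.2% and 2.41% of all genes. Most replication-dependent histone transcripts lack a poly(A) tail, and how well such transcripts were sampled was not tested.

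**Figure D3:**
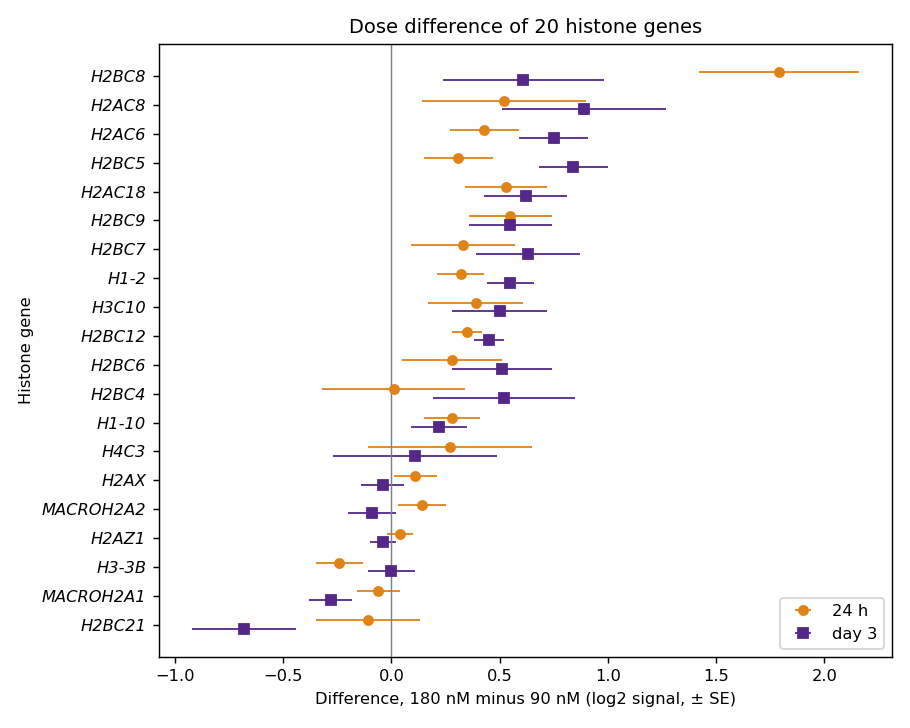
Log2 difference, 180 nM minus 90 nM, of 20 histone genes at 24 h (orange circles) and day 3 (purple squares), with the standard error of the limma fit (n = 3 per dose and time). H2BC12, H2AC6 and H1-2 lie right of 0 at both times, H2AZ1 and H2AX near 0 and H2BC21 left of 0.

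Genes of mitosis and DNA replication were set against the 11.7% of all genes that were higher and 3.5% lower at an unadjusted p under 0.05 for the mean. Of 30 mitosis genes 3 were higher and 0 lower, with a median of 0.06, equal to that of all genes, and KIF2C, a kinesin that removes tubulin from microtubule ends, was the member called (0.27, adjusted p = 0.048), where 0.463% of all genes were called higher. Of 35 DNA replication genes 4 were higher and 4 lower (median 0.03). TYMS, thymidylate synthase, fell, reading 13100, 13300 and 13800 at 180 nM, against 14900, 15600 and 14700 at 90 nM at 24 h, and 11600, 11400 and 11300 against 13000, 13600 and 13400 at day 3 (−0.20, adjusted p = 0.039). Among 23 p53 target genes 1 was higher and 1 lower by the same measure, with 0 called and a median of 0.16 that became 0.02 with a common median. Without the array that stood apart 4 of the 23 were called higher, as were 3 mitosis and 3 DNA replication genes, against 6.77% of all genes, and 1 DNA replication gene was called lower. With quantile normalization of those 11 arrays 1 p53 target was called higher, and 0 mitosis or DNA replication genes were called. Of all genes, 123 were then called higher and 148 lower.

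Among stress genes that respond to ATF4, some were higher at both times. DDIT3, the proapoptotic factor CHOP, was one of them. Its signal was 1220, 1120 and 1060 at 180 nM, against 664, 691 and 641 at 90 nM at 24 h. At day 3 it was 2820, 2700 and 2980, against 2160, 1470 and 1350, and the mean difference was 0.78 ± 0.11 (adjusted p = 0.039). The vehicle means were 500 and 1050, below those of both doses at each time. PPP1R15A, the phosphatase subunit that reverses eIF2α phosphorylation, read 274, 326 and 347 at 180 nM, against 252, 235 and 231 at 90 nM at 24 h, and 1240, 1310 and 1350 against 924, 652 and 651 at day 3 (0.61 ± 0.10, adjusted p = 0.046, and 0.54 with 0.060 on its other probe set). Its vehicle means on the first probe set were 532 at 24 h, above both doses, and 785 at day 3. STC2, a secreted stanniocalcin, read 772, 901 and 794 at 180 nM, against 527, 528 and 485 at 90 nM at 24 h (mean of both times 0.54 ± 0.07, adjusted p = 0.039).

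Over the ATF4 targets as a whole, which include the genes of amino acid supply, differences were mostly positive at 24 h and mostly negative at day 3. Over the list of 27 measured ATF4 targets, 12 were higher and 1 lower at 24 h at an unadjusted p under 0.05 (9.83% and 2.04% of all genes), with a median of 0.17 and 22 positive. The 24 h median was 0.10 with quantile normalization and −0.05 with a common median, where that of all genes was −0.14. At day 3, 5 were higher and 3 lower (6.93% and 4.49% of all genes), with a median of −0.12 and 20 negative. The day 3 difference was below the 24 h difference in 8 of the 27 at an unadjusted p under 0.05, against 4.81% of all genes, and in 13 without the array that stood apart, against 11.3%. None of the 27 was called after adjustment, where 0.009% of all probe sets were.

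TRIB3, a pseudokinase that damps ATF4 signaling, read 3350, 3010 and 2920 at 180 nM, against 2480, 2160 and 2160 at 90 nM at 24 h, but 4040, 4460 and 3490 against 4820, 4620 and 4860 at day 3. The groups did not overlap at either time, in opposite directions. PCK2, the mitochondrial PEP carboxykinase, read 284, 427 and 407 at 180 nM, against 295, 217 and 268 at 90 nM at 24 h, and 325, 268 and 239 against 468, 613 and 563 at day 3, a change in the difference of −1.49 (unadjusted p = 0.00042). DDIT4 (REDD1, an mTORC1 inhibitor) changed by −1.05 and CHAC1, which degrades glutathione, by −1.29. ATF4 itself differed by 0.36 ± 0.07 at 24 h and 0.01 ± 0.07 at day 3. On vehicle arrays, PCK2 averaged 230 at 24 h and 841 at day 3, DDIT4 272 and 1220, and CHAC1 241 and 582, so the day 3 levels under both doses lay below those of vehicle cells of the same age.

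**Figure D4:**
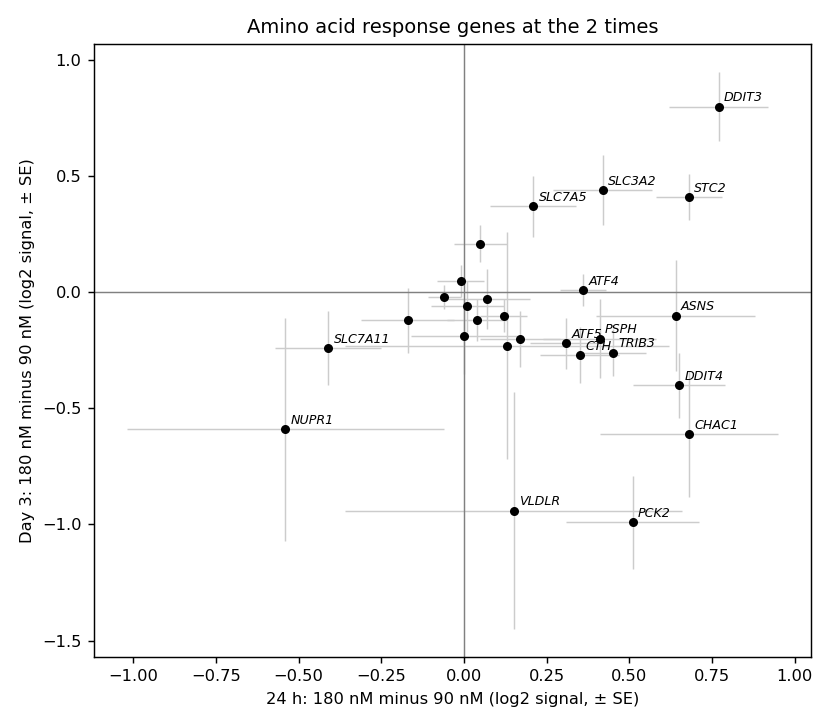
Log2 difference, 180 nM minus 90 nM, at 24 h (x axis) and at day 3 (y axis) of 27 ATF4 target genes, with standard errors of the limma fit (n = 3 per dose and time). DDIT3 and STC2 lie above 0 on both axes; TRIB3, DDIT4, PCK2 and CHAC1 lie right of 0 at 24 h and below 0 at day 3.

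Early response genes gave a single call. Of 27 measured, 7 were higher and 2 lower for the mean at an unadjusted p under 0.05 (11.7% and 3.5% of all genes). Without the array that stood apart 3 were called higher and 1 lower (6.77% and 0.934% of all genes). With quantile normalization of those 11 arrays 0 were called higher and 1 lower. On 12 arrays MAFF, a small MAF factor, rose on both of its probe sets (0.74 ± 0.11, adjusted p = 0.045, and 0.35 ± 0.04, adjusted p = 0.019). The first read 237, 311 and 297 at 180 nM, against 115, 156 and 141 at 90 nM at 24 h, and 591, 516 and 535 against 471, 339 and 403 at day 3. ATF3 differed by 0.74 at 24 h and 0.06 at day 3, JUN by 0.23 and 0.67, and neither was called on 12 arrays. EGR3 was lower by −0.51 ± 0.10 (adjusted p = 0.076, and 0.019 without the array that stood apart).

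Lysosome and autophagy genes were higher in part. Of 34 measured, 11 were higher and 1 lower at an unadjusted p under 0.05 (11.7% and 3.5% of all genes), with a median of 0.16 that was 0.09 with quantile normalization and 0.02 with a common median. ATP6V0D1, a subunit of the proton pump that acidifies lysosomes, was the member called, where 0.463% of all genes were called higher. It read 1990, 2140 and 1850 at 180 nM, against 1450, 1530 and 1280 at 90 nM at 24 h, and 3120, 2870 and 2840 against 2330, 2230 and 2300 at day 3 (0.43 ± 0.05, adjusted p = 0.031). Without the array that stood apart 13 were called, all higher, against 6.77% of all genes. With quantile normalization of those 11 arrays 4 were called higher and 0 lower, and of all genes 123 and 148. GABARAPL1, which coats autophagosomes, differed by 0.62 ± 0.13 (adjusted p = 0.080, and 0.026 without that array), and MCOLN1, the lysosomal calcium channel, by 0.56 ± 0.19 (0.24 and 0.047). CTSZ, a cathepsin near the floor, was lower by −1.07 ± 0.41 (adjusted p = 0.28). At day 3, 14 of the 34 had non-overlapping groups with 180 nM higher and 0 with 180 nM lower, against 12.8% and 7.21% of all genes. At 24 h, 6 were higher and 2 lower in this way, against 10.2% and 2.41% of all genes. Outside the list, ATG13, part of the kinase complex that starts autophagy, rose by 0.44, TECPR2 by 0.43, and RETREG2, a relative of the ER-phagy receptor FAM134B, by 0.32 (adjusted p = 0.039, 0.044 and 0.018). These genes were picked from the 77 probe sets called higher after their values were seen, so they do not count for the list.

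Genes of the NRF2 and glutathione list went both ways. GCLC, the catalytic subunit of the enzyme that limits glutathione synthesis, read 1490, 1830 and 1790 at 180 nM, against 1520, 1310 and 1400 at 90 nM at 24 h, and 1780, 1820 and 1980 against 1090, 1300 and 1110 at day 3 (0.47 ± 0.07, adjusted p = 0.042). The groups overlapped at 24 h only. GSTM4, a glutathione transferase, was higher by 0.58 ± 0.09 (adjusted p = 0.041), and read 664, 580 and 712 at 180 nM, against 390, 331 and 328 at 90 nM at day 3. GSTM1 passed as well on 1 probe set (0.31, adjusted p = 0.039), but the GSTM genes are close copies and their probe sets may share signal. NQO1, a quinone reductase, fell on 1 of its 3 probe sets. It read 4670, 4300 and 4920 at 180 nM, against 5060, 4780 and 5180 at 90 nM at 24 h, and 2290, 2150 and 2330 against 3000, 3320 and 3280 at day 3 (−0.31 ± 0.04, adjusted p = 0.039). Over the list of 22, 5 were higher and 2 lower at an unadjusted p under 0.05 (11.7% and 3.5% of all genes), with a median of 0.02. On 12 arrays 2 of the 22 were called higher and 1 lower (0.463% and 0.0421% of all genes). Without the array that stood apart 3 were called higher and 1 lower (6.77% and 0.934% of all genes). With quantile normalization of those 11 arrays 0 were called higher and 1 lower.

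Probe sets that fell numbered 12 for the mean. SERPINE2, a secreted protease inhibitor also called protease nexin, read 10500, 10300 and 10900 at 180 nM, against 12600, 12300 and 12900 at 90 nM at 24 h, and 10900, 10900 and 10800 against 14000, 13100 and 13100 at day 3 (−0.28 ± 0.03, adjusted p = 0.018). HK2, the inducible hexokinase, read 296, 316 and 358 at 180 nM, against 371, 410 and 388 at 90 nM at 24 h, and 134, 134 and 134 against 190, 202 and 216 at day 3 (−0.44 ± 0.06, adjusted p = 0.039), while its brighter probe set gave −0.12 (adjusted p = 0.67). PHACTR2, a regulator of actin and phosphatase 1, fell by 0.60 on the log2 scale, DAB2, an endocytic adaptor, by 0.36, PTP4A2 by 0.28 and SLC25A5, the mitochondrial ADP/ATP carrier, by 0.20 (adjusted p = 0.039, 0.042, 0.049 and 0.039). In SERPINE2, HK2, PHACTR2 and DAB2 the groups did not overlap at either time. PRSS3, a trypsin, and ALOX5, a lipoxygenase, were called lower from dim signals, PRSS3 reading 8.42, 4.55 and 8.68 at 180 nM, against 25.9, 29.7 and 22.3 at 90 nM at day 3.

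Extracellular matrix genes had a median of −0.31 at day 3, and of −0.10 at 24 h that became 0.00 without the array that stood apart (18 positive, 19 negative). None of the 37 measured was called on 12 arrays. At an unadjusted p under 0.05, 14 were lower and 2 higher for the mean, where 3.5% and 11.7% of all genes were. The median for the mean of both times was −0.28, and −0.31 with quantile normalization and −0.42 with a common median. Without the array that stood apart 4 were called lower (0.934% of all genes) and 1, TIMP3, higher. With quantile normalization of those 11 arrays 5 were called lower and 0 higher, and of all genes 148 and 123. VCAN, the proteoglycan versican, read 271, 381 and 339 at 180 nM, against 444, 604 and 482 at 90 nM at 24 h, and 265, 249 and 236 against 396, 588 and 724 at day 3 (−0.89 ± 0.16, adjusted p = 0.056, and 0.028 without that array). LAMB1, a laminin chain of basement membranes, read 1760, 1480 and 1660 at 180 nM, against 2250, 2320 and 2450 at 90 nM at day 3 (mean of both times −0.39 ± 0.07, adjusted p = 0.050, and 0.015 without that array). COL5A1 differed by −0.75, TNC by −0.74, CCN1 by −0.85 and ELN, the elastin gene, by 0.67, with adjusted p between 0.11 and 0.21. At day 3, 19 of the 37 had every 180 nM array below every 90 nM array and 3 the reverse, against 7.21% and 12.8% of all genes. At 24 h, 6 were lower and 1 higher in this way, against 2.41% and 10.2% of all genes. The fibroblast and endothelial markers summed to 6660 to 7870 at 180 nM and 6110 to 6650 at 90 nM at 24 h, higher at 180 nM without overlap, and to 4340 to 4760 and 4450 to 5680 at day 3. Their part in the result was not tested.

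Metallothioneins, which bind zinc, and cholesterol genes gave mostly negative differences at day 3. For the mean, 8 of 9 measured metallothionein and zinc genes were negative and 2 of 9 had an unadjusted p under 0.05 (3.5% of all genes were lower), with a median of −0.31. MT2A read 4240, 3720 and 3290 at 180 nM, against 3970, 4170 and 4120 at 90 nM at 24 h, and 4500, 3930 and 3260 against 5380, 5930 and 6100 at day 3 (day 3 difference −0.58 ± 0.12, mean adjusted p = 0.12). Of 20 cholesterol genes, 18 were negative at day 3, 6 with an unadjusted p under 0.05 (4.49% of all genes were lower), and the median was −0.23 at day 3 and 0.08 at 24 h (−0.30 and −0.13 with a common median). LSS, lanosterol synthase, read 1520, 1390 and 1350 at 180 nM, against 1810, 2200 and 2230 at 90 nM at day 3, where vehicle arrays averaged 3420. DHCR7, the last enzyme of the pathway, read 840, 1030 and 988 at 180 nM, against 683 to 788 at 90 nM at 24 h, and 1920, 1480 and 1260 against 2000, 2180 and 2450 at day 3, a change of −0.88 between the times (unadjusted p = 0.0027).

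Genes of the ribosome, the target of the drug, gave a direction that turned with the scaling. The median over 30 cytosolic ribosomal protein genes was −0.10 as deposited, −0.24 with a common median and 0.01 with quantile normalization. None was called on 12 arrays or had an unadjusted p under 0.05 for the mean, and 7 were called lower without the array that stood apart (0.934% of all genes), RPL14 with the largest change among them (−0.41). With quantile normalization of those 11 arrays 0 were called higher and 1 lower, and of all genes 123 and 148. Of 34 initiation and elongation factors 0 were higher or lower at an unadjusted p under 0.05, and EEF2 differed by 0.09 ± 0.06 (adjusted p = 0.64). NPEPPS, the puromycin-sensitive aminopeptidase, differed by −0.03 ± 0.18 (adjusted p = 0.99), and ABCB1, the P-glycoprotein pump, read 19.3 to 51.9 at 180 nM, against 13.2 to 37.0 at 90 nM, near the floor. Of 29 proteasome and ubiquitin genes 4 were higher and 2 lower, with a median of 0.00, against 11.7% and 3.5% of all genes.

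**Figure D5:**
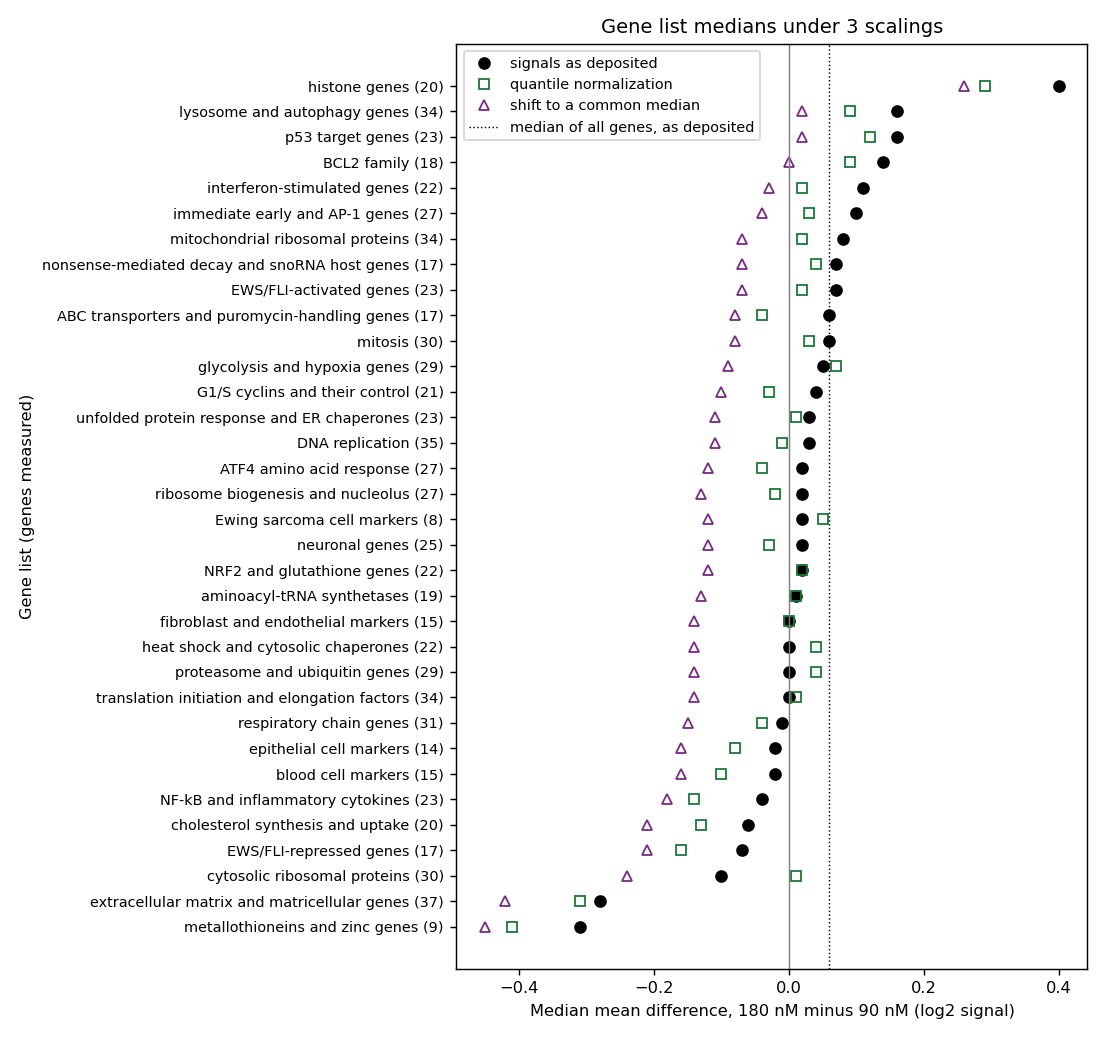
Median over each gene list of the mean log2 difference, 180 nM minus 90 nM, with the number of genes measured in parentheses. Black circles use the deposited scaling, green squares quantile normalization and purple triangles a common median; the dotted line marks the median of all genes as deposited, 0.06. Histone genes lie highest under all 3 scalings and metallothionein and matrix genes lowest.

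The study used the arrays to ask whether compounds shift the genes that change when EWS/FLI is knocked down. Of the 66 probe sets up with knockdown, 10 were higher and 2 lower at an unadjusted p under 0.05 for the mean, with a median of 0.06, and P4HA2 was called, where 10.3% and 2.93% of all probe sets were higher and lower. Without the array that stood apart 4 of the 66 were called higher and 2 lower, where 6.06% and 0.815% of all probe sets were. Of the 77 down with knockdown, 20 were higher and 4 lower, with a median of 0.13 and 0 called on 12 arrays. Without that array 12 of the 77 were called higher (6.06% of all probe sets). Among them were CLSTN2 (0.49 ± 0.08), LBH (0.68 ± 0.13) and FCGRT (0.60 ± 0.11 on those 11 arrays). These counts changed with the scaling. Quantile normalization of the 12 arrays gave the 77 a median of 0.04, with 13 higher and 6 lower at an unadjusted p under 0.05. The 66 then had a median of −0.03, with 6 higher and 11 lower. After quantile normalization of those 11 arrays, 1 of the 77 was called higher and 0 lower. Of the 66, 2 were called higher and 2 lower, and of all probe sets 201 and 213. A score was formed as the average log2 signal over the 66 less the average over the 77. It was −2.12, −2.167 and −2.364 at 180 nM, against −2.057, −1.971 and −1.872 at 90 nM at day 3, without overlap. At 24 h it was −2.33, −2.199 and −2.202, against −2.194, −2.076 and −2.272, and the groups overlapped.

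The 2 times were only loosely alike across probe sets. The correlation between the 24 h and day 3 differences was 0.10 over 22215 probe sets and 0.23 over the 13329 above the 40th percentile of mean signal, as a description, since the probe sets of an array share its RNA and scaling. Between the times, 2 probe sets were called on 12 arrays, both from signals near the floor, with 410 higher and 930 lower at an unadjusted p under 0.05, and 20 were called without the array that stood apart.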

How the data were processed

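RNA of A673 cells was measured on Affymetrix plate arrays. The intensity values were deposited by the authors as MAS5 signals, each array scaled to the same mean. No version of MAS5 is given in the sources used here. No columns of other samples were present (0). The table listed 22930 probe sets. Tests covered the 22215 that were not among its 715 controls. The platform annotation gave 1 symbol for 19230 of them, more than 1 for 125 and no symbol for 2860, which made 11882 genes, each taken from its probe set of highest mean signal.

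Signals were floored at 10 and taken to log2. All 4 groups were fitted together with limma 3.58.1 in R 4.3.3, with an intensity trend, with Benjamini-Hochberg adjustment across every probe set tested (threshold 0.05). The contrasts were 180 nM minus 90 nM at 24 h, at day 3, their mean, and day 3 minus 24 h. Errors are standard errors of the fit. Overlap means that the ranges of 3 against 3 arrays meet. Measures of RNA quality used exact permutations within time.

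The 34 gene lists and the compared arrays were chosen with earlier results of these data known. Named genes were the largest called changes whose groups did not overlap and whose level lay above the 40th percentile, with genes of each list. EPHX1, METTL22, ALOX5, PRSS3 and other called genes outside that rule were chosen after their values were seen. Removal of the array that stood apart and the covariate fits were chosen after seeing the data. On simulated data, the fit for the mean recovered 71% of 100 probe sets changed by 1 on the log2 scale and 97% of 100 changed by 2. The simulation drew noise independently for each probe set, with the same change at both times, and only in probe sets above the 40th percentile. It held no shift of a whole array and no array that stood apart, and changes under 1 were not simulated. Alternatives covered scaling, floor, filter, the samples fitted, blocks and single arrays left out. Promoter windows came from RefSeq (GRCh38.p14).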

Additional observations from a re-analysis of the deposited data

Results flagged for a closer look

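The day 3 difference departed from the 24 h difference in 2 probe sets, by the test of the difference between the times. ALOX5, which makes leukotriene precursors, differed by −1.19 between the times. At day 3 its signal was 6.81, 8.12 and 12 at 180 nM, against 25.0, 23.2 and 24.7 at 90 nM, while at 24 h it was 4.86, 1.14 and 2.28 at 180 nM, against 5.80, 2.87 and 6.74 at 90 nM. All 24 h values lay under the floor of 10, so the 24 h difference is 0 by construction, and its 3 other probe sets were not called. A probe set without a gene symbol differed by −1.69 between the times. It read 19.7, 22.6 and 24.1 at 180 nM, against 4.16, 11.2 and 3.21 at 90 nM at 24 h, and 2.42, 2.27 and 0.607 at 180 nM, against 14.2, 14.9 and 16.6 at 90 nM at day 3. Both lie near the floor, where the size of a difference depends on it.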

How the results depend on the processing

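Counts of calls at 24 h, at day 3, for the mean and between the times were 7, 1, 89 and 2. Quantile normalization gave 0, 53, 157 and 0, and a common median 0 at 24 h, 0 at day 3 and 0 between the times. A floor of 32 gave 17 at day 3 and 5 between the times, and a floor of 1 gave 0, 0, 53 and 0. A filter on mean signal gave 0, 3 at day 3 and 0 between the times. Fitting all 68 arrays gave 0, 2, 2 and 0, and leaving out only the day 5 array with blood transcripts 0, 79 at day 3 and 0. The fit without a trend gave 5 at day 3, and fits of 1 time alone 1 at 24 h and 6 at day 3. Plate row as a block gave 2, 106 and, between the times, 84. Replicate number as a block gave 0, 0, 0 and 0. The labels do not say whether the numbers pair the samples. Same-numbered deviations correlated at 0.22, 0.28 and 0.00 at 24 h, against at most 0.06, −0.09 and 0.17 with another number. At day 3 they correlated at −0.24, 0.02 and −0.12, against at most 0.15, 0.00 and 0.22.

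Of alternatives added after seeing the data, array weights gave 162, 447, 1294 and 5, and the ACTB covariate 227, 302, 961 and 10, or 333 at day 3, 7 for the mean and 6 between the times on 11 arrays. On those 11 arrays, quantile normalization gave 26, 156, 414 and 12, and a common median 3, 237, 1093 and 9. Leaving out both arrays of doubt from the 68 gave 0 at 24 h and 98 at day 3. The cause of these changes was not tested.

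Leaving out single arrays gave 2 to 630 calls at 24 h, 1 to 119 at day 3, 10 to 1528 for the mean and 3 to 20 between the times, each highest count being without replicate 1 of 180 nM at 24 h. The next highest counts were 34, 40, 104 and 15. The lowest count for the mean came without replicate 1 of 180 nM at day 3. Differences in the ACTB ratio ranged from −0.435 to 0.0948, in the GAPDH ratio from −0.155 to 0.0677 and in the share under 10 from −1.09 to −0.779. Of 93 results for genes named by the level rule or drawn from the lists, none reversed. These 93 did not cover every call. Of the calls themselves, 6 of 7 at 24 h, 0 of 1 at day 3 and 0 of 2 between the times had the same sign in all alternatives. The number of arrays, and for dim probe sets the floor, limit what can be seen.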
